A study of Homo sapiens with 18 samples.

Results

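OCI-AML3 cells, a human acute myeloid leukemia (AML) line that expresses mutant NPM1 and carries MLL in its germline form, were compared with and without the Menin inhibitor VTP50469, which the study calls SNDX-50469. The account covers the 6 OCI-AML3 libraries of the 18 in the series, chosen by the titles of their columns: 3 untreated control libraries and 3 libraries from cells exposed to 500 nM VTP50469 for 16 h. Both groups are the same line in the same RPMI medium with 20% serum and carry the same mutant NPM1, and no other agent was given. Bulk RNA was counted per gene. The test of whether the responses differ also uses 2 control and 2 treated libraries (500 nM, 16 h, RPMI) of MOLM13. MOLM13 is an AML line with the MLL-AF9 fusion and an internal tandem duplication of FLT3 (FLT3-ITD). The remaining libraries enter only an alternative fit of all 18. They are MOLM13 with 500 nM of the BET inhibitor OTX015, alone or with 500 nM VTP50469, and MV4-11, untreated or with 1000 nM VTP50469. MV4-11 is another AML line with an MLL fusion, grown in IMDM medium. A single line stands for NPM1-mutant AML here, and the study describes the OCI-AML3 samples as biologic replicates, so the p-values measure the spread among these cultures of 1 line.

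Menin is a scaffold protein that tethers MLL, the histone H3 lysine 4 methyltransferase encoded by KMT2A, to chromatin. In AML with mutant NPM1 or with MLL fusions this complex maintains HOXA genes and their cofactor MEIS1, a program that blocks myeloid differentiation. Menin inhibitors occupy the pocket in Menin that holds MLL, and loss of MEIS1, PBX3 and FLT3 expression followed by differentiation markers is the known effect of the class. NPM1 itself is a nucleolar shuttling protein whose mutant form moves to the cytoplasm.

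The 6 libraries held 49881047 to 59711884 counts and 25206 to 26247 detected genes, and 7.17% to 8.04% of counts came from the mitochondrial genome. At this depth a gene with 0 counts lies below 3 counts, or 0.0502 to 0.0601 CPM (counts scaled to library size), which covers counting error only. Replicates differed by little, with a common biological coefficient of variation of 3.15%. Control replicate 1 stood apart: its chi-square statistic against controls 2 and 3 was 6.19 and 7.03 per degree of freedom, where the other OCI-AML3 pairs ran from 1.46 to 2.59. Myeloid markers were present. CD33 lay between 61.0 and 65.5 CPM, CSF3R between 76.4 and 83.5 CPM and LYZ between 223 and 240 CPM over the 6 libraries (per library total, without scaling factors), while MPO averaged 2.86 CPM and CD68 0.232 CPM, and CD34 and KIT stayed below 1 CPM. Of the lymphoid markers CD3D, CD3E, CD2 and KLRD1, and of the epithelial and stromal markers EPCAM, KRT19, CDH1 and COL3A1, had 0 counts in every library. The summed epithelial and stromal markers ran from 1.30 to 1.79 CPM in control and from 2.11 to 2.60 CPM in treated libraries, through COL1A1 and COL1A2. The erythroid and megakaryocyte markers summed to 18.5 to 19.9 CPM in control and 25.2 to 26.9 CPM in treated libraries, nearly all of it EPOR, the erythropoietin receptor, with HBB, HBG1 and GP9 at 0 counts. The stem markers CD34 and KIT summed to 0.158 to 0.281 CPM in control and 0.407 to 0.433 CPM in treated libraries, where KIT had 0, 0 and 1 counts in control and 10, 11 and 9 in treated libraries. What part these shifts have in the results was not tested.

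Of 16611 genes tested, 2178 (13.1%) passed an edgeR quasi-likelihood test at a Benjamini-Hochberg adjusted p below 0.05 with a log2 fold change of at least 0.32 in size, and such genes are said here to have risen or fallen. The calls leaned to higher expression, with 1426 genes higher (8.58% of those tested) and 752 lower (4.53%), so that 65.5% of the calls were higher. Without scaling factors 76.5% were higher, and with limma-voom after quantile normalization 50.8%. The lean came from the large changes. At least 2-fold changes numbered 402 higher and 69 lower, and at least 4-fold changes 129 higher and 2 lower. With no fold limit the split was 3134 higher and 3204 lower. Control and treated libraries did not overlap for 8092 genes (48.7%), so a lack of overlap is common here. The lean also followed the level of the gene. Of genes averaging 2 to 10 CPM, 18.9% rose and 6.97% fell, whereas of those above 50 CPM 1.30% rose and 3.21% fell. The median log2 fold change over all tested genes was 0.00148. Counts for gene lists below are to be read beside the 8.58% and 4.53% of all tested genes that rose and fell.

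**Figure D1:**
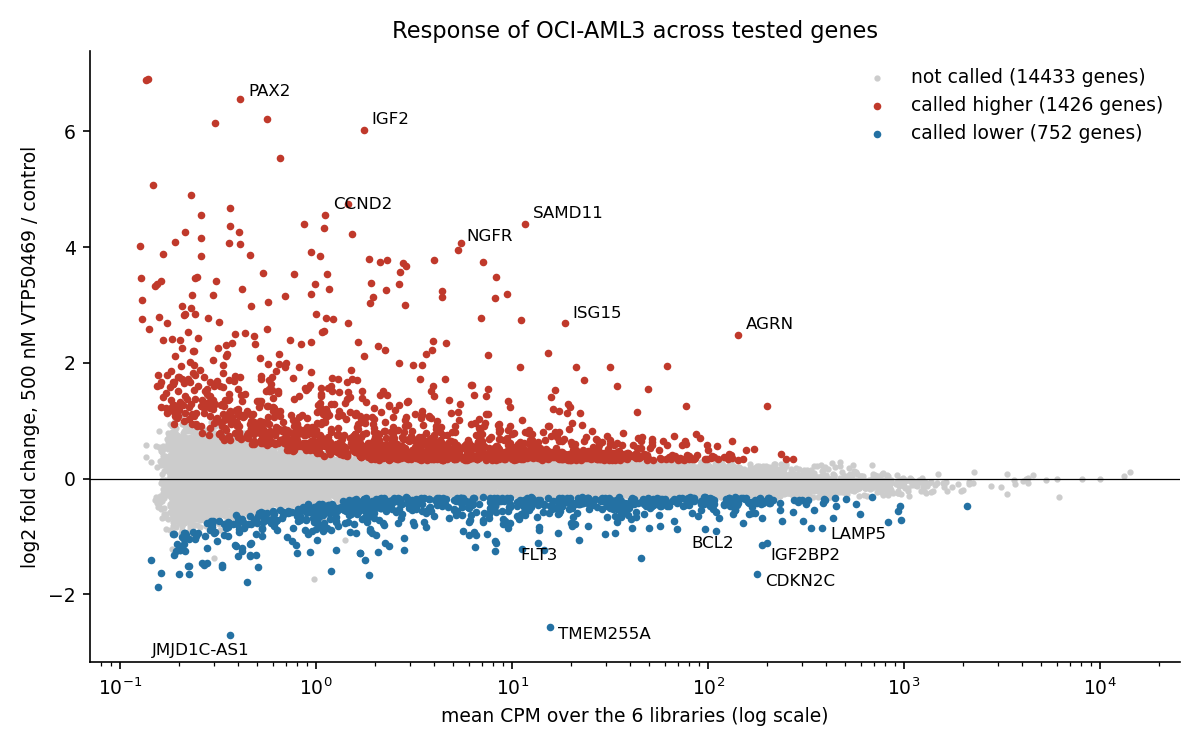
Each point is a tested gene: the x axis is its mean CPM over the 6 libraries on a log scale, and the y axis the log2 fold change of 500 nM VTP50469 against control. Red points (1426) were called higher and blue points (752) lower; large changes lie mostly above 0 and at low to middle levels, and AGRN is a labelled red point above 100 CPM.

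The genes of the targeted complex showed little change at the RNA level. MEN1, which encodes Menin, was measured at 118, 112 and 112 CPM in control and 116, 112 and 114 CPM in treated cells, a log2 fold change of 0.00 ± 0.03 (SE). KMT2A was at 77.8, 88.2 and 92.2 CPM in control and 87.6, 108 and 107 CPM in treated cells (log2 fold change 0.23 ± 0.07), and NPM1 averaged 1471 CPM in control and 1260 CPM in treated cells (-0.22 ± 0.02), both short of the fold limit. Among 25 tested genes of Menin, MLL and their partners 1 rose, MLLT3, a subunit of the super elongation complex (0.44 ± 0.07), and 0 fell. The share that rose was 4%, where 8.58% of all tested genes rose. The drug acts on the Menin protein, so RNA levels do not measure target engagement.

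The MLL target genes that the study follows moved unevenly, and 5 of 12 fell. The median log2 fold change of the 12 was -0.25, and 0 rose. The study named these genes from samples that include OCI-AML3, so their count is not independent evidence of a direction. FLT3, the receptor tyrosine kinase of early myeloid cells (chr13:28003274-28100576, GRCh38), was at 28.7, 30.2 and 30.3 CPM in control and 14.2, 14.3 and 14.5 CPM in treated cells, and fell by 1.05 ± 0.04 on the log2 scale (adjusted p = 4.91e-10). LAMP5, a lysosome-associated membrane protein (chr20:9514590-9530524), went from 495, 486 and 486 CPM to 277, 269 and 271 CPM and fell by 0.84 ± 0.02. PBX3, the homeodomain cofactor of HOXA9 (chr9:125747373-125967377), went from 30.8, 31.5 and 31.2 CPM to 18, 17.1 and 18 CPM and fell by 0.82 ± 0.04. These 3 had the largest falls of the list, and their control and treated libraries lay far apart.

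MEIS1, the other HOXA9 cofactor (chr2:66435125-66573869), fell less. It was at 38.9, 36.9 and 38.2 CPM in control and 26.7, 26.9 and 27.4 CPM in treated cells, a fall of 0.49 ± 0.04 on the log2 scale, to 0.71 of control. CDK6, the G1 kinase, went from 602, 673 and 676 CPM to 458, 487 and 500 CPM and fell by 0.43 ± 0.04. MYB, a progenitor transcription factor, was lower in each treated library (293, 306 and 300 against 241, 241 and 245 CPM), but its log2 fold change of -0.31 ± 0.02 missed the fold limit. HOXA9 did not pass, at 68.8, 67.6 and 64.4 CPM in control and 68.4, 67.5 and 68.5 CPM in treated cells (0.03 ± 0.03). MEF2C (0.09 ± 0.03), JMJD1C (-0.20 ± 0.04), SENP6 (-0.01 ± 0.04), TCF4 (-0.03 ± 0.05) and BMI1 (0.10 ± 0.07) did not pass either.

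**Figure D2:**
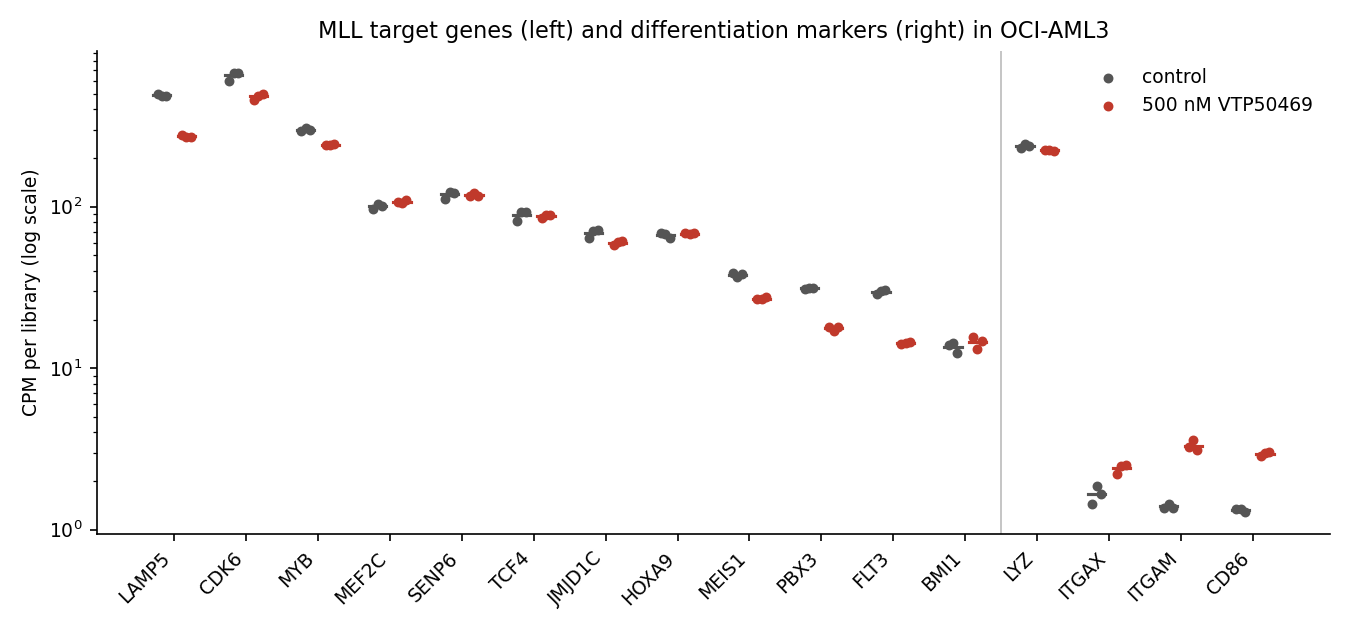
CPM on a log axis in each of the 3 control (grey) and 3 treated (red) OCI-AML3 libraries for 12 MLL target genes and 4 differentiation markers, with bars at the group means. LAMP5, PBX3 and FLT3 show the widest gaps downward, HOXA9 overlaps between groups, and ITGAM and CD86 rise from below 2 CPM to about 3 CPM.

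Among 15 tested genes of a wider list of MLL fusion targets, 8 fell and 1 rose, with a median log2 fold change of -0.33. CDKN2C, the p18 inhibitor of CDK4 and CDK6 (chr1:50960745-50974634), went from 288, 265 and 251 CPM to 87.6, 85.1 and 83.7 CPM and fell by 1.65 ± 0.04 (adjusted p = 1.01e-11). CPEB2, a regulator of mRNA translation, went from 19.5, 20.0 and 21.5 CPM to 8.73, 8.59 and 8.77 CPM and fell by 1.23 ± 0.05. IGF2BP2, an RNA-binding protein that stabilizes mRNAs, went from 255, 259 and 266 CPM to 116, 115 and 119 CPM and fell by 1.15 ± 0.03. SOCS2, RUNX2, SATB1, ZEB2 and ARPP21 fell by 0.90, 0.86, 0.68, 0.37 and 0.33, and ARPP21 is no longer called without control replicate 1 (-0.28), control replicate 2 (-0.32) or treated replicate 3 (-0.30). MAML2, a coactivator of Notch signalling, was the member that rose (1.03 ± 0.07, from 3.96, 4.68 and 4.63 to 8.89, 8.95 and 9.38 CPM).

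Among genes averaging at least 2 CPM whose groups did not overlap, TMEM255A, a transmembrane protein gene (chrX:120251433-120311461), had the largest fall. It was at 25.8, 27.3 and 26.9 CPM in control and 4.68, 4.48 and 4.34 CPM in treated cells, a fall of 2.57 ± 0.05 on the log2 scale. CDKN2C came next. PHF10, a subunit of the PBAF chromatin remodelling complex, went from 276, 270 and 273 CPM to 127, 123 and 127 CPM and fell by 1.12 ± 0.03, at much higher counts than most of the others. FOXO1, a forkhead transcription factor held in check by AKT, fell by 1.1 ± 0.05 (from 17.8, 18.9 and 18.8 to 8.80, 8.47 and 8.60 CPM). ALDH1A1, an aldehyde dehydrogenase used as a stem cell marker (-1.11 ± 0.08), PTGIS, prostacyclin synthase (-1.21 ± 0.05), NANOS1 (-1.19 ± 0.10), DIPK1C (-1.23 ± 0.12), LRRC4 (-1.1 ± 0.12) and PCOLCE2 (-1.08 ± 0.06) were also among the 15 largest falls.

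RAB5IF and PDF reached that group through 1 library. RAB5IF was at 23.4 CPM in control replicate 1 and at 6.17 and 5.10 CPM in the other controls, against 4.75, 4.71 and 4.77 CPM in treated cells, and its log2 fold change of -1.26 becomes -0.24 without control replicate 1. PDF was at 6.09 CPM there and at 1.95 and 1.74 CPM in the other controls, and its value goes from -1.16 to -0.36. Neither is called without that library.

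Antisense transcripts at MLL target genes gave some of the largest falls at low counts, and were picked out after their values were seen. JMJD1C-AS1 (chr10:63465229-63466563) went from 0.695, 0.522 and 0.683 CPM to 0.0731, 0.0722 and 0.142 CPM and fell by 2.69 ± 0.31, while JMJD1C did not pass. CDK6-AS1 (chr7:92836483-92917187) went from 2.00, 1.79 and 1.57 CPM to 0.566, 0.794 and 0.409 CPM and fell by 1.59 ± 0.20, beside the 0.43 of CDK6. None of the sources used here states how strand was handled in counting, so reads of an antisense transcript and of its partner cannot be told apart where they overlap.

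The HOXA cluster did not fall, although HOXA9 is the best known Menin target. Of its 11 tested genes 6 rose, 0 fell and 5 did not pass, with a median log2 fold change of 0.55. The posterior members stayed level, HOXA9 at 0.03, HOXA10 at -0.06 ± 0.07 (100, 84.6 and 76.4 CPM in control, 87.6, 80.4 and 82.0 CPM treated), HOXA11 at -0.10 and HOXA13 at 0.08. The anterior and middle members rose from low levels. HOXA5, the clearest of these, went from 6.36, 5.64 and 5.48 CPM to 11.2, 10.8 and 11.2 CPM and rose by 0.93 ± 0.07. HOXA3 rose by 0.55 ± 0.09, from 3.31, 3.07 and 3.35 CPM to 4.44, 5.07 and 4.72 CPM. HOXA6 (1.06 ± 0.15), HOXA7 (0.70 ± 0.22) and HOXA2 (0.67 ± 0.25) rose too, all at a mean below 3 CPM. The calls of HOXA2 and HOXA7 are lost with DESeq2 and when most single libraries are left out.

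Of 9 tested HOXB genes 3 rose, with HOXB9 first (1.24 ± 0.06, from 12.5, 10.7 and 11.9 CPM to 27.4, 26.4 and 29.1 CPM). The cofactor genes split. MEIS1 and PBX3 fell, whereas MEIS3 (1.5 ± 0.15) and MEIS2 (0.38 ± 0.10) rose from control means below 4 CPM. In control cells MEIS1 was at 38 CPM and PBX3 at 31.2 CPM.

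Differentiation genes rose in part. The study's markers ITGAM (the integrin chain CD11b) and CD86 (a costimulatory ligand) rose, to 2.38 and 2.23 times control. ITGAM went from 1.37, 1.45 and 1.37 CPM to 3.23, 3.59 and 3.13 CPM, and CD86 from 1.35, 1.35 and 1.28 CPM to 2.85, 3.00 and 3.03 CPM. ITGAX, the integrin chain CD11c, rose by 0.53 ± 0.12. LYZ, lysozyme, was slightly lower in treated cells (231, 245 and 237 against 225, 225 and 220 CPM, -0.09 ± 0.03), and LY96 was too low to test. So 3 of 4 tested markers rose. The list was chosen partly on these samples, and the count is not independent evidence.

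Among 21 tested monocyte and macrophage genes 7 rose and 2 fell, with a median of 0.03. CD14, the LPS co-receptor, went from 10.6, 11.4 and 9.80 CPM to 16.4, 16.1 and 16.6 CPM and rose by 0.63 ± 0.06. CTSS, a lysosomal cysteine protease, rose by 0.56 ± 0.03 (from 86.8, 92.2 and 90.6 to 136, 130 and 131 CPM), and CX3CR1 (0.52 ± 0.05), CD163 (0.45 ± 0.04), LILRB1 and LILRB2 (1.34 ± 0.30, below 1 CPM) also rose. CSF1R, the receptor for macrophage colony-stimulating factor, went the other way, from 8.40, 8.52 and 9.61 CPM to 5.26, 5.29 and 5.30 CPM, and fell by 0.75 ± 0.07. FCN1 fell by 0.54 ± 0.19 at about 1 CPM, and its call is lost when any of 3 libraries is left out, control replicate 1 (-0.48), control replicate 2 (-0.53) or treated replicate 3 (-0.37). Of 11 tested genes of Toll-like receptors and their signalling 5 rose and 0 fell, namely TLR7 (1.75 ± 0.24), TLR1 (0.70 ± 0.13), TLR6, TLR4 (0.64 ± 0.03, from 38.6, 41.8 and 41.0 to 62.8, 62.4 and 63.6 CPM) and TLR8. ANXA1, a calcium-dependent phospholipid-binding protein, rose by 0.77 ± 0.03 and was the only 1 of 7 tested granulocyte genes to do so.

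A list for the primary granules and the promyelocyte stage, at which they are made, had 11 tested genes. Of these 5 fell (45.5%, beside 4.53% of all tested genes), 0 rose and 6 did not pass, and the median was -0.31. PRTN3, proteinase 3, averaged 1201 CPM in control and 729 CPM in treated cells and fell by 0.72 ± 0.03. CTSG, cathepsin G, averaged 2433 CPM in control and 1743 CPM in treated cells and fell by 0.48 ± 0.02. SRGN, the granule proteoglycan serglycin, fell by 0.55 ± 0.02, MS4A3 by 0.61 ± 0.03 and RNASE3 by 0.43 ± 0.05. MPO (-0.31 ± 0.10), ELANE (-0.18) and AZU1 (-0.19) did not pass.

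Of 17 tested transcription factors of the granulocyte and monocyte lineage 6 fell, 2 rose and 9 did not pass. The shares were 35.3% lower and 11.8% higher, beside 4.53% and 8.58% of all tested genes. IRF8, which directs monocyte and dendritic cell fate, averaged 1038 CPM in control and 618 CPM in treated cells and fell by 0.75 ± 0.02. CEBPA, the factor required for granulocyte commitment, fell by 0.53 ± 0.10, with control replicate 1 at 202 CPM, the other controls at 145 and 140 CPM and the treated cells at 113, 111 and 113 CPM, and by 0.34 without control replicate 1. SPI1 (PU.1), CEBPB and CEBPD had the same shape, and without control replicate 1 their log2 fold changes of -0.42, -0.47 and -0.42 became -0.30, -0.27 and -0.20, all short of the fold limit. That left 3 factors that fell, IRF8, CEBPA and EGR1. JUN and ID2 rose by 0.40 each. GATA2, a stem and progenitor factor, went from 4.17, 3.78 and 3.98 CPM to 10.1, 10.8 and 11.1 CPM and rose by 1.42 ± 0.07, whereas TAL1 (-0.72 ± 0.12) and ERG (-0.43 ± 0.06) fell. CD38 fell by 0.66 ± 0.04, and CLEC12A rose by 1.35 ± 0.23 at below 1 CPM.

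Signalling genes downstream of FLT3 gave no common direction: of 21 tested 5 rose and 3 fell, and the median was 0.08. These are 23.8% and 14.3%, beside 8.58% and 4.53% of all tested genes. Besides FLT3, SOCS2, a STAT5-induced feedback inhibitor, fell by 0.90 ± 0.18 at about 1 CPM and SPRY1 by 0.68 ± 0.15. PIM1, a survival kinase that STAT5 induces, rose by 0.96 ± 0.07, from 4.82, 4.18 and 4.22 CPM to 8.33, 8.65 and 8.74 CPM. CCND2, cyclin D2, had 2, 7 and 5 counts in the control libraries and 111, 138 and 107 counts in the treated libraries, a log2 fold change of 4.55 ± 0.27. These control counts are close to the floor of 3.

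Of 16 tested G1 cyclins, kinases and kinase inhibitors 5 rose and 3 fell. CDKN2C and CDK6 are described above, and CDKN2A fell by 0.71 ± 0.07. CDKN1C (p57) went from 0.429, 0.502 and 0.324 CPM to 5.46, 4.62 and 4.70 CPM and rose by 3.57 ± 0.15. CCND1 rose by 0.53 ± 0.04, CDKN2B by 0.63 ± 0.09 and CDKN2D by 0.34 (0.26 without control replicate 3 and 0.32 without treated replicate 2, where its call is lost), and CCND2 is given with the FLT3 genes. CDKN1A (p21) went from 65.7, 67.9 and 66.7 CPM to 89.2, 88.2 and 88.6 CPM and rose by 0.41 ± 0.03. It is counted here with the p53 targets, of which 3 of 19 rose (15.8%, beside 8.58% of all tested genes). Among 27 S phase genes and 23 DNA repair genes 0 passed in either direction, and of 24 mitosis genes 1 did (CENPE, 0.33). The call of CENPE is lost without control replicate 1 (0.24), treated replicate 2 (0.31) or treated replicate 3 (0.30). Of the BCL2 family BCL2, the anti-apoptotic protein, went from 141, 143 and 144 CPM to 73.0, 77.4 and 79.1 CPM and fell by 0.90 ± 0.03. The pro-apoptotic BMF rose by 0.80 ± 0.05, BCL2L11 (BIM), also pro-apoptotic, fell by 0.41 ± 0.03, and MCL1 and BCL2L1 did not pass. BCL2A1 rose by 0.39 ± 0.12 at about 2 CPM, a call lost in 6 of the 15 other settings.

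MYC fell by 0.35 ± 0.02, from 562, 569 and 563 CPM to 439, 442 and 448 CPM. Of 38 MYC and ribosome biogenesis genes 4 fell (TERT, MRTO4, MYC and NOP16) and 0 rose. The share that fell was 10.5%, beside 4.53% of all tested genes. The median of the 38 was -0.20, so small shifts below the fold limit made up most of it. Without scaling factors the count that fell was 1. NOP16 is no longer called without control replicate 1 (-0.29), treated replicate 2 (-0.31) or treated replicate 3 (-0.32), nor MRTO4 without treated replicate 2 (-0.32). Cytosolic ribosomal proteins (0 of 60 passed, median -0.07), oxidative phosphorylation genes (0 of 40, median -0.02) and mitochondrial genome transcripts (0 of 13) did not pass, and of the unfolded protein response (3 of 18) and ATF4 genes (1 of 21) few did.

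**Figure D3:**
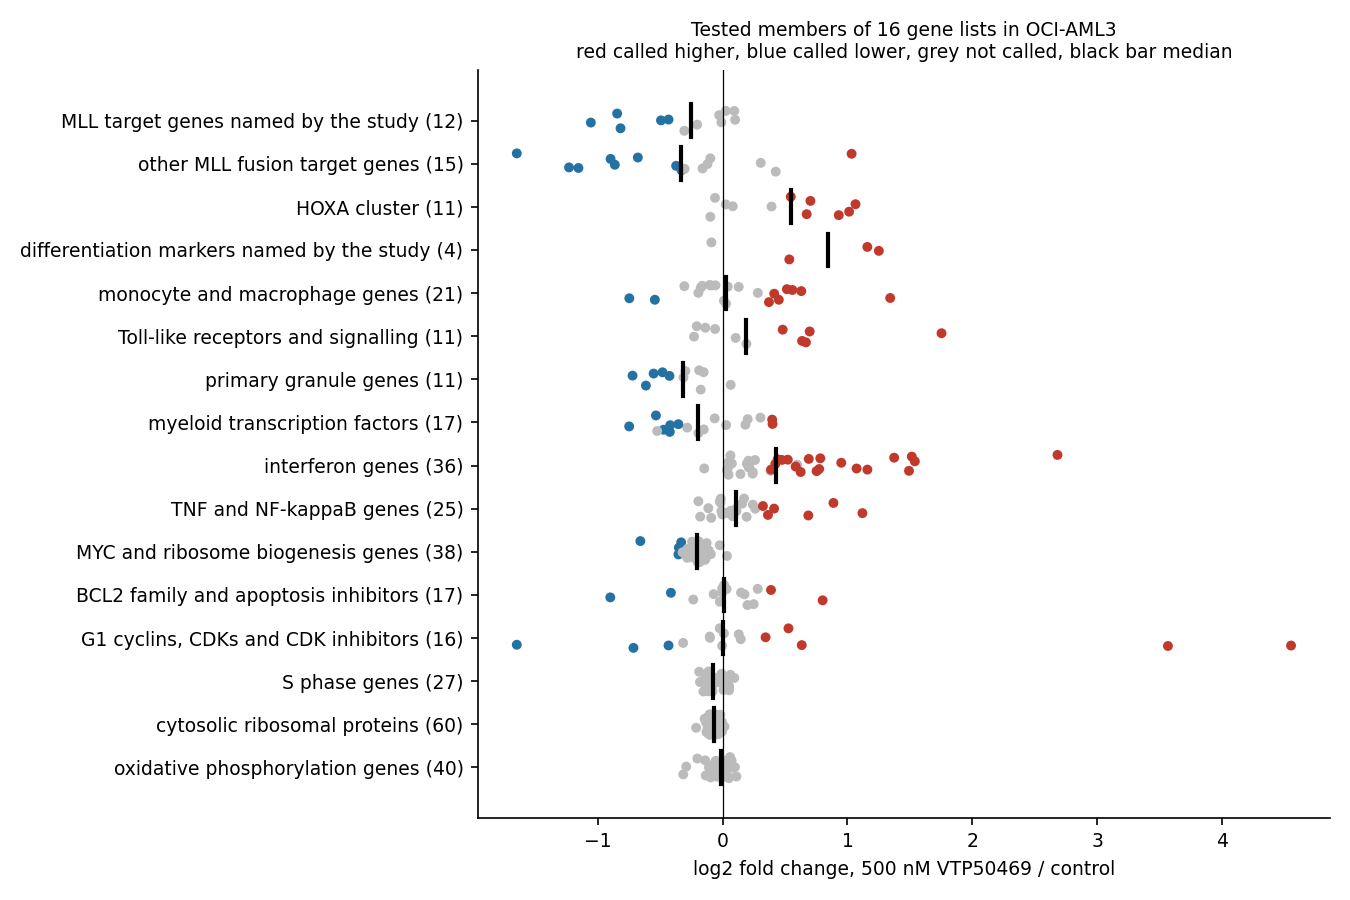
Log2 fold changes (x axis) of the tested members of 16 gene lists (rows, with the number tested), each point a gene, red called higher, blue called lower and grey neither, with a black bar at the list's median. HOXA and interferon genes lie mostly right of 0 (medians 0.55 and 0.43), primary granule and MLL target genes mostly left (-0.31 and -0.25), and S phase, ribosomal protein and oxidative phosphorylation genes cluster at 0.

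Interferon genes were the list with the most members called higher by count, and 1 of the longer lists. By share (52.8%) the list came after some shorter ones, such as the HOXA cluster (54.5%). Of 36 tested 19 rose and 0 fell, with a median log2 fold change of 0.43, where 8.58% of all tested genes rose and the median of all was 0.00148. ISG15, a ubiquitin-like protein induced by interferon, went from 5.19, 4.82 and 4.95 CPM to 32.0, 31.0 and 33.0 CPM and rose by 2.68 ± 0.05. OAS3, a sensor of double-stranded RNA, went from 3.49, 3.86 and 4.22 CPM to 10.7, 11.6 and 11.5 CPM and rose by 1.54 ± 0.07, and OAS1 rose by 1.49 ± 0.15. IFIT1, which binds foreign RNA ends, went from 0.797, 0.803 and 0.802 CPM to 1.86, 2.31 and 2.06 CPM and rose by 1.37 ± 0.14. SLFN5 (1.52 ± 0.16), the chemokine CXCL10 (1.16 ± 0.11), GBP5, IFIT2 and IFIT3 (0.69 ± 0.06) rose too, as did the regulator IRF7 (0.59 ± 0.06). MX1 (0.38 ± 0.16) and RSAD2 (-0.15 ± 0.20), which are also classical interferon targets, did not pass. Among 25 tested TNF and NF-kappaB genes 6 rose (24%, beside 8.58% of all tested genes) and 0 fell. CCL2 rose most (1.12 ± 0.06).

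The promoters of ISG15 and IFIT1 are shown for the element that marks interferon genes, 2 copies of GAAA with 2 bases between them, on either strand. HES4, which rose beside ISG15, and CDKN2C, the gene with the second largest fall, are shown for contrast. All are RefSeq GRCh38.p14 sequence of 300 bases that spans the transcription start, written 5′ to 3′ along the gene's strand. Capitals mark the paired GAAA, the MEIS core TGACAG and the E-box CACGTG, on either strand, where overlapping matches run together.
ISG15 (chr1:1013247-1013546, + strand): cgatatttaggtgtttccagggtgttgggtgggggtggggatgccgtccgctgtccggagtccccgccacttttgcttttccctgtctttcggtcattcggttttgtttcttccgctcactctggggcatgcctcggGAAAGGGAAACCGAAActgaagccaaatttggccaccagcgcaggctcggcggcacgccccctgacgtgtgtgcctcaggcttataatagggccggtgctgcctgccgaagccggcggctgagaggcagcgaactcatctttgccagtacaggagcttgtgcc
IFIT1 (chr10:89392373-89392672, + strand): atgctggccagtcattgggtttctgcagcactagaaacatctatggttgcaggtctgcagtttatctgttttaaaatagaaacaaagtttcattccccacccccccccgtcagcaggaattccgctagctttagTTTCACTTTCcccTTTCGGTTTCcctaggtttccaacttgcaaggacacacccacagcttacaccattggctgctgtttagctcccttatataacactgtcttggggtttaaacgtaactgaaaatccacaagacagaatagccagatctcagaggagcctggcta
HES4 (chr1:1000048-1000347, - strand): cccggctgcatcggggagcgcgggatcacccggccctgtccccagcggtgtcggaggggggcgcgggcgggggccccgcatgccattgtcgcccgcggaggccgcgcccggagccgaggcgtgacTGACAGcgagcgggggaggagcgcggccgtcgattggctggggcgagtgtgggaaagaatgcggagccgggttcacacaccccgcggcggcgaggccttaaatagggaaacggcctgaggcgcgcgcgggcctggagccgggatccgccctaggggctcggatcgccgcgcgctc
CDKN2C (chr1:50960495-50960794, + strand): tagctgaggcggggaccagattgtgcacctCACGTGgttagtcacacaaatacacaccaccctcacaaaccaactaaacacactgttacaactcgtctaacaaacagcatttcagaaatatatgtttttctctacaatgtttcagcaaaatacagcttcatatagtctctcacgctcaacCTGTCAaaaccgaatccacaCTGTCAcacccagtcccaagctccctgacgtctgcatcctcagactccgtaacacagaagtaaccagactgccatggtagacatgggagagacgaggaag
ISG15 and IFIT1 each hold 2 paired GAAA matches, HES4 a MEIS core and no pair, and CDKN2C 2 MEIS cores and an E-box.

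Promoter entries were at hand for 13 of the 19 interferon genes that rose, and 10 of these held the paired GAAA. So did 5 of the 12 interferon genes with an entry that did not pass, and 3.65% of all 27305 promoters of the same length. Over the whole response, the paired GAAA stood in 5.62% of 979 promoters of genes that rose, 2.65% of 490 of genes that fell and 2.85% of 11198 of tested genes. The MEIS core was in 16.1%, 11.2% and 13.1% of these (15.9% of all promoters), the HOX-PBX letters TGATTTA in 15, 5 and 140 of them (2.87% of all promoters), and the E-box in 5.82%, 12% and 10.2% (7.43%). The choice of the paired GAAA was made after the list's values were seen. A match is a run of letters and does not show that a factor binds.

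ISG15 also belongs to a run of neighbours that rose together. Ordered by RefSeq position, 9 adjacent tested genes at chr1:916818-1056116 were all called higher, the longest run in either direction. SAMD11, a sterile alpha motif protein, had the largest rise of all genes averaging at least 2 CPM. It went from 1.16, 1.06 and 0.939 CPM to 23.6, 21.2 and 21.6 CPM, a log2 fold change of 4.40 ± 0.09 (adjusted p = 8.5e-13). AGRN, the proteoglycan agrin, went from 41.7, 43.6 and 43.9 CPM to 239, 241 and 243 CPM and rose by 2.49 ± 0.03, the firmest change at this level. LINC02593 rose by 4.07 ± 0.13, HES4, a transcriptional repressor of the Notch pathway, by 3.49 ± 0.10, PERM1 by 3.28 ± 0.19, PLEKHN1 by 3.14 ± 0.11, KLHL17 by 1.14 ± 0.06 and NOC2L, an inhibitor of histone acetyltransferases, by 0.50 ± 0.02. The next tested gene on either side did not pass, LINC01128 at 0.20 ± 0.08 and C1orf159 at -0.02 ± 0.04. The interferon list without ISG15 had a median of 0.42, an alternative added after seeing the data. SAMD11 overlaps NOC2L and PLEKHN1 overlaps PERM1 at their ends, where reads could be shared.

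**Figure D4:**
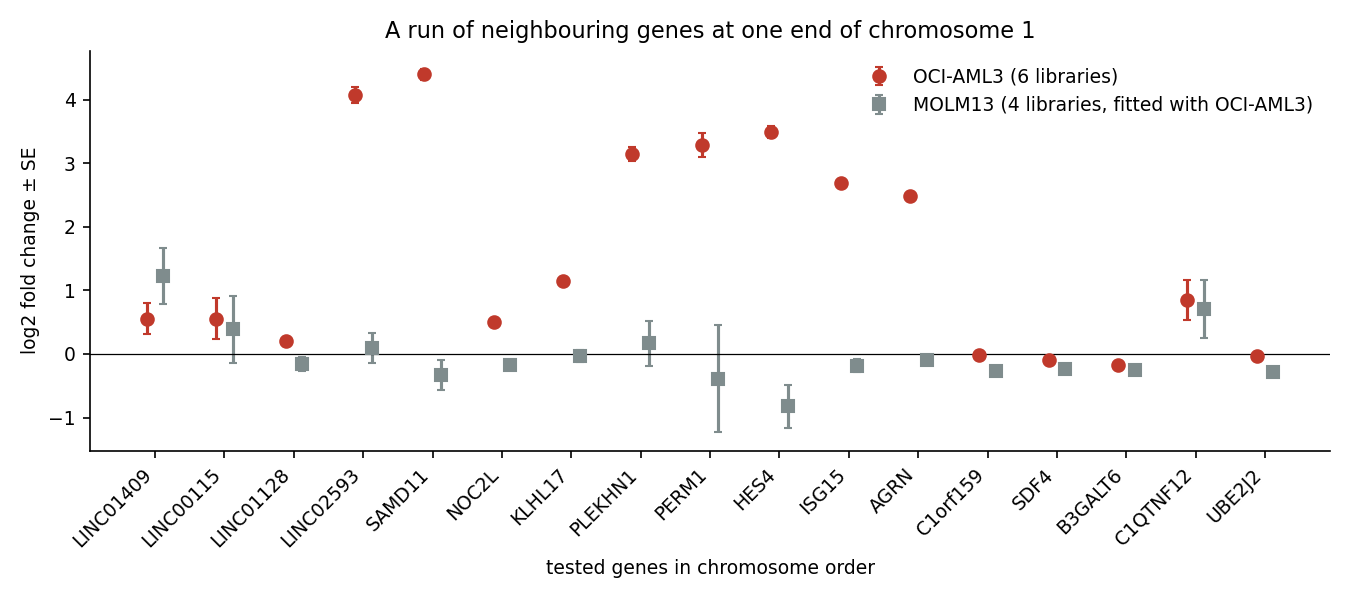
Log2 fold changes ± SE (y axis) of neighbouring tested genes in chromosome order (x axis), for OCI-AML3 (red circles) and MOLM13 (grey squares). From LINC02593 to AGRN the OCI-AML3 values lie between 0.50 and 4.40, those of MOLM13 between -0.82 and 0.17, and both lines lie near 0 on either side apart from low-count genes with wider error bars.

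Other runs were shorter. Among 14782 genes with a position there were 35 runs of at least 3 neighbours called higher, holding 133 genes, and 14 called lower, holding 46 genes. Runs of 5 or more numbered 7 called higher and 0 called lower. A run of 5 covers DLX4, DLX3, ITGA3, PDK2 and SAMD14 (chr17:49968572-50130160), and a run of 4 holds IFIT2, IFIT3, IFIT1 and IFIT5 (chr10:89302046-89420997). Genes within 1 Mb of the outermost tested gene of their chromosome rose in 14% of 726 cases, and those beyond 10 Mb in 8.53% of 11199. Transcripts in the highest GC quartile rose in 13.1% of cases and those in the lowest quartile in 6.26%, and what part GC content has in the position of the rises was not tested.

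CBX2 and CBX8 encode chromodomain subunits that bring Polycomb repressive complex 1 to histone H3 trimethylated at lysine 27. CBX8 went from 26.5, 23.9 and 24.9 CPM to 73.5, 73.7 and 72.3 CPM and rose by 1.54 ± 0.04. CBX2 went from 45.6, 44.1 and 47.3 CPM to 108, 108 and 112 CPM and rose by 1.26 ± 0.03. CBX7 (0.64 ± 0.08) and CBX6 (0.41 ± 0.03), on another chromosome, and the ring finger subunit PCGF2 (0.93 ± 0.04) rose as well. In all 6 of 32 Polycomb genes rose (18.8%, beside 8.58% of all tested genes) and 0 fell. The other 26 lay between -0.18 and 0.31. EZH2, the methyltransferase, was at -0.16 ± 0.03. This list was drawn up after the values were seen and is a description.

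The genes with the largest rises had control means below 2 CPM, and reached a mean of 2 CPM through the treated libraries. Besides SAMD11, the 15 largest rises at a mean of at least 2 CPM included NGFR, the low-affinity neurotrophin receptor (0.593, 0.522 and 0.785 CPM in control, 9.92, 9.49 and 10.6 CPM treated), KISS1R, the kisspeptin receptor (3.77 ± 0.12), and HRH3 and GRIN1, receptors of neurons. TBX1, a T-box factor of pharyngeal development, averaged 1.00 ± 0.213 CPM (SD, n = 3) in control and 13.3 ± 0.838 CPM in treated cells, without overlap, and rose by 3.74 ± 0.11. SOX8 (3.26 ± 0.14), a neural crest factor, MAFA (3.25 ± 0.11), a factor of pancreatic beta cells, NOTUM (3.20 ± 0.08), an extracellular inhibitor of Wnt proteins, SRCIN1 (3.77 ± 0.14) and FBXL16 (3.68 ± 0.12) were the others apart from CDKN1C and the chromosome 1 genes.

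Genes with hardly a read in control cells appeared too, named here after their values were seen and given as counts. PAX2, a kidney and eye factor, had 0, 1 and 0 counts in control and 40, 47 and 48 in treated libraries. HES7, the segmentation clock repressor, had 0, 2 and 0 against 72, 49 and 63, and GATA5, a cardiac and gut factor, 1, 2 and 1 against 65, 68 and 81. IGF2, insulin-like growth factor 2, had 2, 2 and 4 against 204, 179 and 190. LMX1B, a limb and neuron factor, had 0, 0 and 1 against 13, 22 and 13. All treated levels stayed below 4 CPM. Of 91 tested members of 10 developmental transcription factor families (among them HOX, SOX, FOX, PAX, T-box, GATA, HES and HEY, LIM homeobox and DLX genes, grouped by symbol after the values were seen) 35 rose and 12 fell. Members silent in control were tested only because treated cells expressed them, so such a count is a description and no support. Within the families the direction differed. FOXF1 (3.80 ± 0.18), FOXC1 (2.14 ± 0.08) and PAX5, a B cell factor (2.77 ± 0.18), rose, while FOXO1 and FOXP1 (-0.75) fell. The KLF genes, a separate family outside these 10, had 13 tested members, of which 0 rose and 0 fell.

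Ligands and receptors were also grouped by symbol after the values were seen, and their counts are descriptions beside the 8.58% of all tested genes that rose. Some members, such as EPHB2 with 4 control counts in all, were tested only because treated cells expressed them. Of 9 tested WNT ligands 3 rose, 1 fell and 5 did not pass. Of 12 tested ephrins and Eph receptors, which signal at cell contacts, 8 rose and 1 fell, among those that rose EFNA2 (2.38 ± 0.14, from 1.72, 1.19 and 0.939 CPM to 6.72, 6.10 and 6.96 CPM) and EPHA2 (1.52). Of 12 tested Wnt target genes 5 rose and 1 fell: NOTUM, LEF1 (2.12 ± 0.41), BMP4 (1.78 ± 0.33), SP5 and AXIN2 rose, the last 4 from below 0.5 CPM in every control library, and APCDD1 fell by 0.50. ABCG1, a cholesterol exporter, went from 0.123, 0.281 and 0.290 CPM to 1.21, 1.14 and 1.39 CPM and rose by 2.39 ± 0.24, while ABCA1 did not pass (0.20 ± 0.06) and of 21 cholesterol genes only IDI1 fell.

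The response of OCI-AML3 was then compared with that of MOLM13, the MLL-AF9 line, at the same dose, time and medium. In a 10-library edgeR fit of 18172 genes the responses differed for 1369 (7.53%), with the OCI-AML3 value above that of MOLM13 for 805 (4.43%) and below for 564 (3.1%). With upper-quartile factors 48.2% of the calls were above, against 58.8%. The MOLM13 libraries held 21447286 to 23684811 counts, so the lines were not sequenced to the same depth, and line and depth cannot be told apart. The labels name no sequencing run or batch, so whether the lines were handled together is not known.

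Several MLL targets fell less in OCI-AML3 than in MOLM13. MEIS1 changed by -0.49 in OCI-AML3 and -2.63 in MOLM13, a difference of 2.13 ± 0.10 (adjusted p = 4e-12). MEF2C changed by 0.09 and -1.97 (difference 2.07 ± 0.06), JMJD1C by -0.20 and -1.35 (1.14 ± 0.07) and PBX3 by -0.82 and -1.80 (0.99 ± 0.06). BMI1, SENP6 and HOXA9 differed by 0.71 ± 0.10, 0.50 ± 0.06 and 0.46 ± 0.07 in the same direction. FLT3, which carries the internal tandem duplication in MOLM13 and averaged 278 CPM in its control cells against 28.3 CPM in OCI-AML3 in this fit, fell by 1.05 in OCI-AML3 and 0.75 in MOLM13, a difference of -0.31 ± 0.06 that missed the fold limit. For LAMP5 (-0.04 ± 0.04), CDK6 (0.06 ± 0.07), MYB (-0.08 ± 0.05) and TCF4 (-0.11 ± 0.12) the difference did not pass.

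The myeloid genes split. ITGAM (0.09 ± 0.18), CD86 (0.13 ± 0.16) and ITGAX (-0.52 ± 0.20) did not pass the test of a difference, although errors of this size leave room for differences beyond the fold limit. LYZ changed by -0.09 in OCI-AML3 and 0.89 in MOLM13 (difference -0.98 ± 0.05). The largest differences below MOLM13, among genes averaging at least 2 CPM in both lines, were CSF1R (-0.75 and 1.07, difference -1.82 ± 0.12), ABCA1 (-1.68 ± 0.28), CX3CR1 (-1.47 ± 0.16), the neutrophil chemokine CXCL8 (-1.46 ± 0.14) and the inflammasome genes NLRP12 (-1.40 ± 0.20) and NLRP1 (-1.35 ± 0.21). Under the same limit of 2 CPM in both lines, the largest above MOLM13 were NOTUM (4.06 ± 0.20), TBX1 (3.92 ± 0.29), ESPN (3.40 ± 0.29), EEF1A2 (3.38 ± 0.14), HIC1 (2.96 ± 0.16) and ISG15 (2.87 ± 0.12). Some genes below that limit had larger called differences, such as SAMD11. Of the 9 chromosome 1 neighbours 0 rose in MOLM13, and the difference passed for all 9, from 0.68 ± 0.04 for NOC2L to 4.73 ± 0.29 for SAMD11. PERM1 averaged only 0.146 CPM in control and 0.114 CPM in treated MOLM13 cells, near the floor of counting. Its difference (3.67 ± 0.95) ran from 2.18 to 4.36 with single libraries left out, and its call is lost in at least 1 of these fits. CBX8 (1.69 ± 0.07), CBX2 (1.29 ± 0.06), BCL2 (-0.83 ± 0.06) and IRF8 (-0.37 ± 0.04) also differed.

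**Figure D5:**
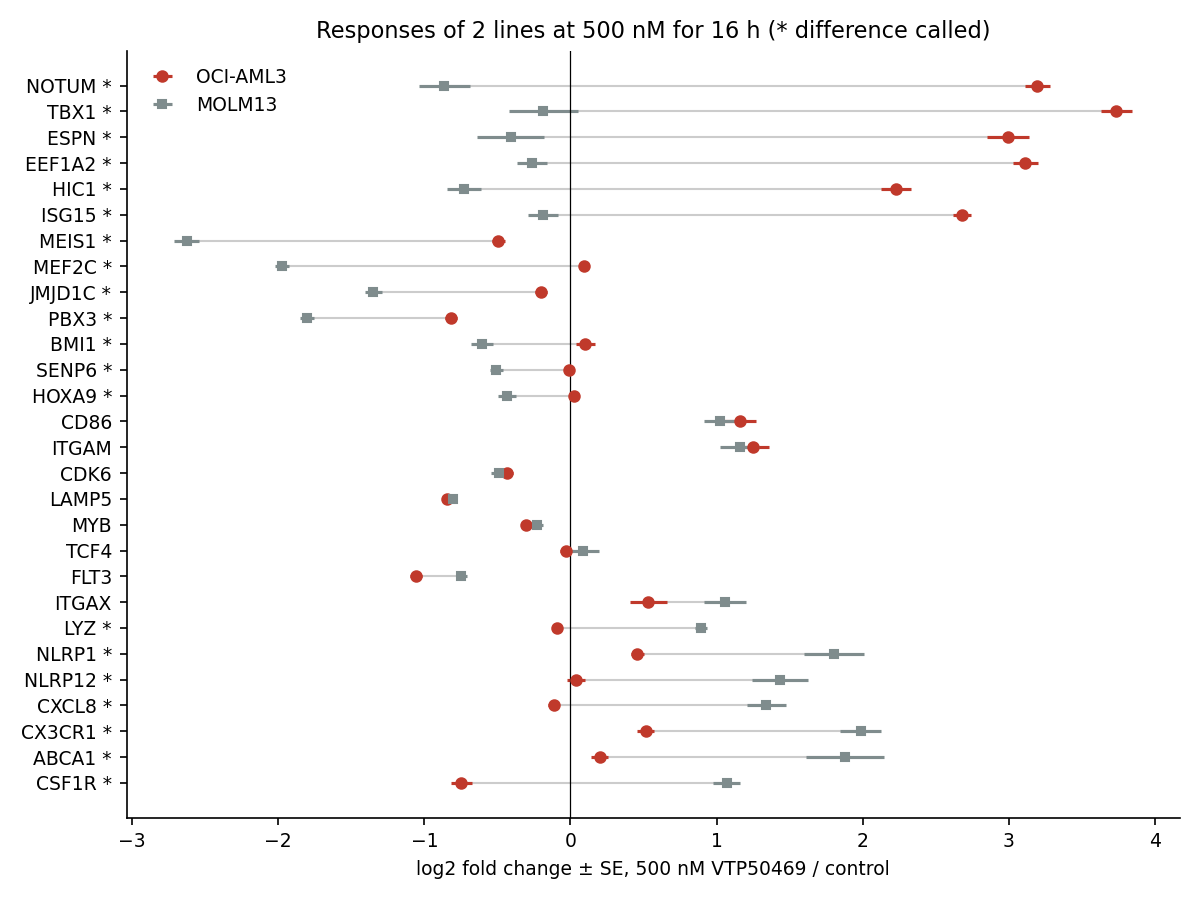
Log2 fold changes ± SE (x axis) of 28 genes (rows) in OCI-AML3 (red circles) and MOLM13 (grey squares), joined by a line, with an asterisk where the difference was called. NOTUM, TBX1 and ISG15 lie far to the right in OCI-AML3 and near or left of 0 in MOLM13, MEIS1 (-0.49 and -2.63) and MEF2C were far lower in MOLM13, and LAMP5 and CDK6 nearly coincide.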

How the data were processed

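The authors deposited whole-number read counts per gene (counts, not normalized), with alignment to hg38. The submitters' notes name STAR where the study's methods name TopHat2 and Cufflinks, so the aligner is unsure, and no source states how strand was handled. Of 58037 gene IDs 40894 had a symbol, and the rest held 0.378% of OCI-AML3 counts. Counts were fitted in edgeR 4.0.16 (R 4.3.3) with TMM scaling, filterByExpr and the quasi-likelihood test, in the 6 OCI-AML3 libraries and, for the difference in response, in these and 4 MOLM13 libraries. Adjusted p-values are Benjamini-Hochberg over all genes tested. A call needed an adjusted p below 0.05 and a log2 fold change of at least 0.32 in size, and the SE is the log2 fold change divided by the root of F. Named genes were the 15 largest rises and falls among calls averaging at least 2 CPM without overlap, and members of 42 lists. The 6 largest called differences from MOLM13 in each direction, among genes averaging at least 2 CPM in both lines, were named too. Other named genes are said to be chosen later. The members and lists were chosen with earlier results of these data known. On simulated counts for the OCI-AML3 comparison (16611 genes), 98 of 100 genes changed by 1.5-fold and 100 of 100 changed by 2-fold were recovered. For the difference in response it was 90 of 100 and 99 of 100. The changed genes were drawn from those with ample counts in every library, and all genes were given the same spread. Recovery at low counts, or of genes with a wide spread, was therefore not tested. Alternatives used DESeq2 1.42.0, limma 3.58.1, other scaling, no filter, a replicate block, all 18 libraries and each library left out. Positions and promoters are RefSeq GRCh38.p14. Some items are not reported here.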

Additional observations from a re-analysis of the deposited data

Results flagged for a closer look

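The responses of OCI-AML3 and MOLM13 to 500 nM VTP50469 differed, by the edgeR test of the difference itself, for the 28 genes below. They were taken from the lists of the study, the chromosome 1 run and the largest differences among genes averaging at least 2 CPM in both lines. Each value is the log2 response of OCI-AML3 minus that of MOLM13. Among the study's MLL targets and markers it was 2.13 for MEIS1, 2.07 for MEF2C, 1.14 for JMJD1C, 0.99 for PBX3, 0.71 for BMI1, 0.50 for SENP6, 0.46 for HOXA9 and -0.98 for LYZ. Among the chromosome 1 neighbours it was 4.73 for SAMD11, 4.31 for HES4, 3.98 for LINC02593, 3.67 for PERM1, 2.97 for PLEKHN1, 2.87 for ISG15, 2.58 for AGRN, 1.17 for KLHL17 and 0.68 for NOC2L. It was 4.06 for NOTUM, 3.92 for TBX1, 3.40 for ESPN, 3.38 for EEF1A2 and 2.96 for HIC1. On the other side it was -1.82 for CSF1R, -1.68 for ABCA1, -1.47 for CX3CR1, -1.46 for CXCL8, -1.40 for NLRP12 and -1.35 for NLRP1. Line and sequencing depth cannot be told apart in these values, and the labels name no batch. The call of PERM1, which lay near the floor of counting in MOLM13, is lost when at least 1 single library is left out.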

How the results depend on the processing

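The count of genes called in OCI-AML3 was 2178. It became 6338 (3134 higher, 3204 lower) with no fold limit and 471 (402 higher, 69 lower) at 2-fold or more, and ran from 1957 to 2187 with single libraries left out (1327 to 1488 higher, 630 to 754 lower). With limma-voom after quantile normalization it was 2087, with DESeq2 1815, with all 18 libraries in 1 fit 1738 (1165 higher, 573 lower, with 77.4% of the 2178 kept), with no filter on low counts 2456 and without scaling factors 2311, where the median of all genes moved to 0.0556. The count of response differences between the lines, 1369, became 721 (458 above, 263 below) with all 18 libraries in 1 fit, and ran from 1137 to 1671 with single libraries left out, highest without OCI-AML3 control replicate 1. Same-numbered control and treated libraries showed little common deviation from their group means (r of 0.0344, 0.0109 and 0.00499). For libraries with different numbers r ran from -0.0331 to 0.0223. With 3 libraries per group these values cannot decide whether the numbers pair the samples. With the replicate number as a block the counts were 2242 (1462 higher, 780 lower) and 1443 (825 above, 618 below). A correction for GC content, added after seeing the data, gave 2194 and 1412. The cause of these shifts was not tested. Among the genes followed through the settings, which are most of those named here, none with a call changed sign. The sign was not checked for the other calls.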
